A study of Homo sapiens with 4 samples.

Results

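Genes whose response to CDCA8 knockdown differed between Huh1 and Huh7 cells were described from 4 RNA sequencing libraries. For each gene the log2 change in Huh1 (CDCA8siRNA minus NCsiRNA) was subtracted from the same change in Huh7, on the log2(RPKM + 1) scale. RPKM is a level per length, in which the reads of a transcript are divided by its kilobases and by the sequencing depth. Of 18398 transcripts in the deposited values, 10357 reached 1 RPKM in at least 1 library of each cell line and were compared. The response differed by 1 or more on the log2 scale, which is 2-fold or more, in 59 of them. It was higher in Huh7 for 36 genes (0.348% of the genes compared) and lower in Huh7 for 23 genes (0.222%). A further grouping by the size of each response gave 39 genes that responded in 1 line only and 11 that responded in opposite directions.

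Huh1 and Huh7 are established human hepatocellular carcinoma cell lines. Each line was transfected either with NCsiRNA, the Negative control siRNA, or with CDCA8siRNA, and the study's methods name the variant as CDCA8-1siRNA. Both lines stand for 1 tumour each, all 4 cultures received a transfected siRNA, and a single siRNA sequence stands for the knockdown. Each combination of line and siRNA has 1 library, so no spread between cultures could be measured, no test was possible and no p-value is given for any difference. A counting SD, the SD that sampling of reads alone gives a log2 value, stands beside the differences and covers counting error only. In RNA from whole cultures, fewer cells that express a gene and less RNA of it per cell cannot be told apart.

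CDCA8 encodes borealin, a subunit of the chromosomal passenger complex. With the kinase AURKB, INCENP and survivin (BIRC5), this complex corrects the attachment of chromosomes to the spindle and then helps the dividing cell to separate its daughters. Hepatocellular carcinoma lines keep different parts of the programme of the hepatocyte, such as plasma proteins, detoxifying enzymes and lipid synthesis, and differ from each other in growth factor, Hippo and inflammatory signalling. The same depletion can therefore meet quite different starting levels of a gene in each line.

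The value of 1 read gave 12197606 to 13384836 reads per library, and 2568 to 3169 transcripts per library were listed at 0. CDCA8 was at 24.1 RPKM in Huh1 with NCsiRNA and 5.86 with CDCA8siRNA, and at 51.5 and 7.36 RPKM in Huh7. The log2 change was -1.87 in Huh1 and -2.65 in Huh7, a difference of -0.78 (counting SD 0.14), so the target itself was lowered further in Huh7. All 10 hepatocyte markers reached 1 RPKM, with a summed level of 6229 RPKM in Huh1 and 3391 RPKM in Huh7 with NCsiRNA, and 5322 and 2443 RPKM with CDCA8siRNA. Of 7 fibroblast markers, 4 reached 1 RPKM, and the sum of all 7 was 12.1 and 25.9 RPKM in Huh1 and 284 and 377 RPKM in Huh7. In Huh7 COL1A1 was at 107 and 125 RPKM, COL1A2 at 31.4 and 56.9, COL3A1 at 1.89 and 4.14 and LUM at 143 and 190, whereas in Huh1 only LUM, at 11.95 and 25.6 RPKM, reached 1 RPKM. THY1, PDGFRB and DCN stayed under 0.5 RPKM. Of 5 immune markers only LYZ reached 1 RPKM, and none of the 3 endothelial markers with values, VWF, CDH5 and KDR, did. The part of these markers in the differences below was not tested.

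Responses were wider in Huh7. The SD of the log2 change over all genes was 0.254 in Huh1 and 0.336 in Huh7. At least 2-fold, 81 genes were higher (0.782%) and 70 lower (0.676%) with CDCA8siRNA in Huh7, while 30 genes were higher (0.29%) and 16 lower (0.154%) in Huh1. Most genes that passed 2-fold in Huh7 leaned the same way in Huh1 without reaching 2-fold. Of the 81 higher genes, 11 also passed 2-fold in Huh1, 47 changed by 0.3 to 1 in the same direction, 22 stayed within 0.3 and 1 changed by more than 0.3 the other way. Of the 70 lower genes these numbers were 10, 46, 11 and 3. For the 30 genes higher in Huh1 the numbers by the change in Huh7 were 11, 11, 6 and 2. For the 16 genes lower in Huh1 they were 10, 4, 0 and 2.

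A response was assigned to 1 line only when it reached 2-fold there and stayed within 0.3 in the other line. By this rule 22 genes were higher in Huh7 only (0.212%), 11 were lower in Huh7 only (0.106%), 6 were higher in Huh1 only (0.0579%) and 0 were lower in Huh1 only. Responses of at least 0.5 in opposite directions were found for 11 genes (0.106%), of which 7 were lower in Huh1 and higher in Huh7 and 4 the reverse. Another 9 genes moved the same way in both lines with a difference of 1 or more, and the Huh7 response was the larger for each of these. The classes of 1 line only also hold genes with a difference under 1, and of their 39 genes 18 were outside the 59. Another 18 of the 59 genes were in none of these classes. Just inside the limit were CPNE3 at -1.01, ZNRD1 at -1.01 and METRNL at -1.02, and just outside were SQSTM1 at 0.997, FAM108C1 at -0.986 and SLC2A1 at -0.974.

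**Figure D1:**
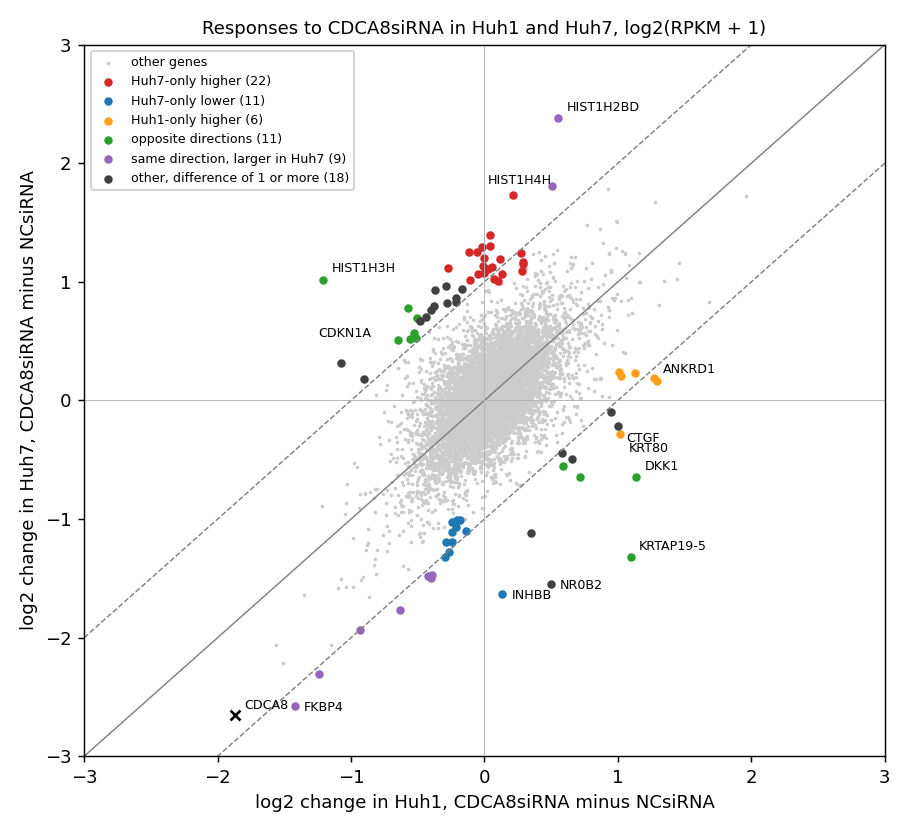
Log2 change with CDCA8siRNA in Huh1 (horizontal axis) against Huh7 (vertical axis) for 10357 genes, each point 1 gene from 1 library per condition, coloured by class. The solid line marks equal responses and the dashed lines a difference of 1. Of 81 genes 2-fold or more higher in Huh7, 22 were higher in Huh7 only. Of 30 genes 2-fold or more higher in Huh1, 6 were higher in Huh1 only.

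Low expression and short transcripts were common among the 59 genes. Their median transcript length was 1586 nucleotides against 3028 for all genes compared, and their median level was 2.89 against 3.82 on the log2(RPKM + 1) scale. The share of genes with a difference of 1 or more was 1.69% at a mean level under 2, 0.562% from 2 to 4, 0.246% from 4 to 6 and 0.656% at 6 or above. The difference was at least 3 counting SDs for 52 of the 59 genes, which were picked by the size of this same difference. Over all genes compared, the SD of the difference was 0.273 and the median counting SD 0.115. At a mean level of 6 or above these were 0.218 and 0.050. The spread over genes was thus wider than counting error, and a multiple of the counting SD does not measure how repeatable a difference is. In 9 of the 59 genes at least 1 library held under 10 estimated reads. A gene that reached 1 RPKM in only 1 library of a line passed the filter through that library, so the filter favoured a change there. With 1 RPKM required in all 4 libraries, 44 of the 59 genes remained.

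The starting level of a gene went with the sign of the difference. The NCsiRNA libraries put 804 genes more than 2-fold higher in Huh1, 1235 more than 2-fold higher in Huh7 and 8318 within 2-fold. Among genes higher in Huh1, the response was higher in Huh7 by 1 or more for 19 (2.36%) and lower for 3 (0.373%). Among genes higher in Huh7 these numbers were 5 (0.405%) and 9 (0.729%), and among genes within 2-fold they were 12 (0.144%) and 11 (0.132%). The control values enter both of these measures. With the line difference taken from the mean of both siRNAs, which does not share them in this way, the numbers were 12 (1.51%) and 5 (0.631%) of 793 genes higher in Huh1, and 6 (0.489%) and 7 (0.571%) of 1226 genes higher in Huh7. The lean was thus smaller by that measure. The gap between the lines was narrower with CDCA8siRNA than with NCsiRNA for 35 of the 59 genes (59.3%), against 50.7% of all genes.

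**Figure D2:**
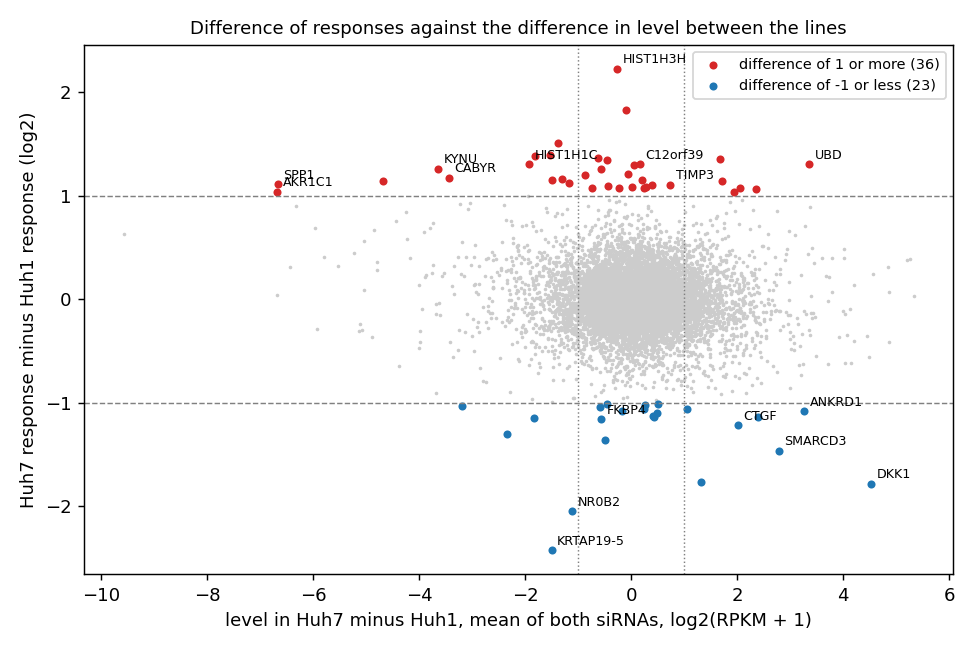
Difference of responses (Huh7 minus Huh1, log2, vertical axis) against the difference in level between the lines (Huh7 minus Huh1, mean of both siRNAs on the log2(RPKM + 1) scale, horizontal axis), each point 1 of 10357 genes. Red points are the 36 genes at 1 or more and blue points the 23 at -1 or less, and both lie on either side of equal levels, with SPP1 and AKR1C1 far to the left and DKK1 far to the right.

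Clustered histone genes formed the largest group among the genes higher in Huh7. These genes supply the core and linker histones that package new DNA during S phase, and most of their mRNAs end in a stem-loop in place of a poly(A) tail. The list of clustered histones was chosen with earlier results of these data known, so its counts are a description only. Of its 17 members with values, the response was higher in Huh7 for 15 and lower for 2, with a median difference of 1.13. Of the 11 that passed the filter, HIST1H3H, HIST1H4H, HIST1H2AE and HIST1H2BJ did so in Huh7 only through the CDCA8siRNA library, where they were high, so a higher response was partly fixed by the filter. Over the 7 members at 1 RPKM or more in all 4 libraries, which the filter did not favour in this way, the response was higher in Huh7 for 7 and the median difference was 1.30. Among the 11, the difference was 1.5-fold or more for 9 and 1 or more for 8. Over all genes compared, the response was higher in Huh7 for 49.0%, by 1.5-fold or more for 1.98% and by 1 or more for 0.348%. It was lower by 1.5-fold or more for 2.14%. The median log2 change of the 11 was 0.168 in Huh1 and 1.248 in Huh7, and the median difference was 1.31, against -0.01 over all genes.

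HIST1H2BD, an H2B gene, was at 7.78 RPKM with NCsiRNA and 11.8 with CDCA8siRNA in Huh1, and at 3.33 and 21.5 RPKM in Huh7. The line with the lower control value thus ended with the higher value, and the difference of responses was 1.83 (counting SD 0.29). HIST1H1C, a linker histone gene, was at 45.7 and 43.9 RPKM in Huh1 and at 6.83 and 17.6 RPKM in Huh7, a difference of 1.31 (counting SD 0.23). Here Huh7 stayed below Huh1 with either siRNA. HIST1H2BK, the most abundant of the list, was at 108 and 99.9 RPKM in Huh1 and at 31.5 and 64.7 RPKM in Huh7 (difference 1.13, counting SD 0.17). HIST2H2BE was at 3.99 and 4.14 RPKM in Huh1 and at 1.27 and 4.97 RPKM in Huh7 (difference 1.35, counting SD 0.23). Both were flat in Huh1 and more than 2-fold higher in Huh7.

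HIST1H3H, an H3 gene, moved in opposite directions, from 2.05 to 0.32 RPKM in Huh1 and, in Huh7, from 0.17 to 1.38 RPKM, on about 34, 5, 3 and 21 reads. Its difference of 2.23 (counting SD 0.32) was the largest of all genes higher in Huh7, and it rests on few reads. HIST1H4H, HIST1H2BC, HIST1H2BJ and HIST1H2AD, the last of which was outside the list, had differences of 1.52, 1.30, 1.37 and 1.21 with 1 to 10 reads in the Huh7 control library. Differences of HIST1H2BC, HIST1H2BJ and HIST1H2AD stayed under 3 counting SDs. HIST1H2AD also passed the filter in Huh7 only through the CDCA8siRNA library. In the list, 7 of 11 genes had a control level more than 2-fold higher in Huh1. Clustered histone genes are near-identical copies of each other, and reads may have been divided among them, so single values are uncertain. The labels do not say whether RNA was selected by poly(A) tail.

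The promoters of HIST1H2BD and HIST1H1C are shown because the list moved together. Each holds 250 bases before the transcript start, from RefSeq on GRCh38.p14, where these genes are named H2BC5 and H1-2. HIST1H2BD lies on the plus strand at chr6:26157872-26158121 and HIST1H1C on the minus strand at chr6:26056471-26056720. Capitals mark the CCAAT box on either strand (CCAAT or ATTGG).
HIST1H2BD: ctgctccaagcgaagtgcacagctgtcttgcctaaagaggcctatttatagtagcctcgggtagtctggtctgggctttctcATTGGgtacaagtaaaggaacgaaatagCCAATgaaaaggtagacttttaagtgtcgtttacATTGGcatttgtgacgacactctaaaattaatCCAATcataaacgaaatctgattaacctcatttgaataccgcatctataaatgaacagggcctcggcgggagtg
HIST1H1C: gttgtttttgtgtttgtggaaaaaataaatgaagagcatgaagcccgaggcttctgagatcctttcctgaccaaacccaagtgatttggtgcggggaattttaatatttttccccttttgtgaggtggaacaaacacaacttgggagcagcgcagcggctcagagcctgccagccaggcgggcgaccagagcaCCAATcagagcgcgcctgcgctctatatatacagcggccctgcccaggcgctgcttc
CCAAT was found on either strand in 10 of 11 histone promoters (90.9%) against 34.9% of 8632 promoters of all genes compared, and TATAAA in 9 of 11 (81.8%) against 5.73%. Of the 22 genes higher in Huh7 only, 7 held TATAAA and 11 held CCAAT. These 22 include the clustered histones HIST1H4H, HIST1H2BJ, HIST2H2BE, HIST1H1C, HIST1H2AD and HIST1H2BK, and the remaining genes were not counted apart. These matches describe the letters in the window and do not show that a factor was bound.

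The other 16 genes higher in Huh7 only came from several pathways. KYNU, kynureninase of tryptophan breakdown, was at 175 and 180 RPKM in Huh1 with NCsiRNA and CDCA8siRNA, and at 8.08 and 21.5 RPKM in Huh7. Its difference was 1.26 (counting SD 0.12), while Huh1 kept a far higher level with either siRNA. SPP1, osteopontin, went from 2107 to 2039 RPKM in Huh1 and, in Huh7, from 13.1 to 28.6 RPKM (difference 1.12, counting SD 0.10). LDHB, a lactate dehydrogenase subunit, was at 403 and 432 RPKM in Huh1 and at 2.68 and 6.38 RPKM in Huh7. For these 3 genes the Huh7 change started from a small share of the Huh1 level.

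Other genes of the class started at a like level or a higher level in Huh7. C12orf39, the gene of the peptide hormone spexin, was at 14.1 and 13.9 RPKM in Huh1 and at 9.70 and 25.2 RPKM in Huh7 (difference 1.31, counting SD 0.13). GBP1, an interferon-inducible GTPase, was at 8.67 and 8.83 RPKM in Huh1 and at 5.76 and 13.6 RPKM in Huh7 (difference 1.08, counting SD 0.14). The Huh7 value was below both Huh1 values with NCsiRNA and above both with CDCA8siRNA for each of these genes. HBEGF, a ligand of the EGF receptor, was at 1.30 and 1.29 RPKM in Huh1 and at 4.09 and 10.1 RPKM in Huh7 (difference 1.14, counting SD 0.22). BTG2, an antiproliferative gene and p53 target, was at 3.94 and 4.36 RPKM in Huh1 and at 13.1 and 31.3 RPKM in Huh7 (difference 1.08, counting SD 0.16). TUBA1A, an alpha-tubulin, was at 32.6 and 33.9 RPKM in Huh1 and at 118 and 258 RPKM in Huh7 (difference 1.07, counting SD 0.08). All 3 were higher in Huh7 already with NCsiRNA.

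ABLIM3, an actin-binding LIM protein, was lower in Huh1, from 33.0 to 27.2 RPKM, and higher in Huh7, from 4.99 to 12.02 RPKM (difference 1.39, counting SD 0.10). NR6A1, a nuclear receptor of germ cells, went from 4.91 to 4.90 RPKM in Huh1 and, in Huh7, from 3.78 to 9.08 RPKM (difference 1.08). RASL12, CDC42EP2, SULT1E1, GBP3, S100A2 and FAM46A completed the class with differences of 0.81 to 0.96. SULT1E1, GBP3 and S100A2 passed the filter in Huh7 only through the CDCA8siRNA library, so their rise there was partly fixed. Over the 22 genes the controls were within 2-fold for 7, more than 2-fold higher in Huh1 for 11 and more than 2-fold higher in Huh7 for 4.

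Genes lower in Huh7 only included secreted and liver-enriched products. INHBB, the inhibin beta B chain that forms activin B, was at 0.89 and 1.07 RPKM in Huh1 and at 7.70 and 1.81 RPKM in Huh7. The Huh7 control stood apart from the other 3 libraries, and the difference was -1.77 (counting SD 0.20). FADS1, the delta-5 fatty acid desaturase, was at 105 and 95.7 RPKM in Huh1 and at 39.6 and 17.9 RPKM in Huh7 (difference -0.96, counting SD 0.06). ASGR1, a subunit of the hepatocyte asialoglycoprotein receptor, was at 107 and 87.6 RPKM in Huh1 and at 10.5 and 4.02 RPKM in Huh7 (difference -0.91, counting SD 0.17). In contrast to INHBB, both were higher in Huh1 with either siRNA, and the gap between the lines widened.

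ZNRD1, a subunit of RNA polymerase I, had near-equal controls, at 15.8 RPKM in Huh1 and 16.3 in Huh7, and went to 12.96 and 6.14 RPKM (difference -1.01, counting SD 0.26). ZYX, the focal adhesion protein zyxin, was at 50.2 and 42.4 RPKM in Huh1 and at 128 and 62.2 RPKM in Huh7 (difference -0.78, counting SD 0.06). METRNL, LEAP2, ITPKA, NCEH1, LOXL4 and PFKFB4 made up the rest, with differences of -1.02 to -0.80. In Huh7, LEAP2 was at 3.13 and 0.81 RPKM and passed the filter only through the NCsiRNA library, so its fall there was partly fixed. LEAP2 encodes a liver peptide hormone, NCEH1 a cholesteryl ester hydrolase, LOXL4 a lysyl oxidase of the matrix and PFKFB4 a regulator of glycolysis. Each of the 11 genes, picked by the size of the Huh7 response, had a difference at least 3 counting SDs from 0. Controls were within 2-fold for 5 of them.

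The 6 genes higher in Huh1 only included KRT80, TMED8, ANKRD1, RAB27B and THBS1. KRT80, an epithelial keratin, was at 12.03 and 25.4 RPKM in Huh1 and at 3.06 and 2.33 RPKM in Huh7 (difference -1.30, counting SD 0.15). TMED8 was at 3.36 and 9.69 RPKM in Huh1 and at 7.63 and 8.67 RPKM in Huh7 (difference -1.13, counting SD 0.10). RAB27B, a GTPase of vesicle secretion, went from 5.35 to 12.9 RPKM in Huh1 and, in Huh7, from 0.77 to 1.08 RPKM. KRT80 and RAB27B were thus more abundant in Huh1 from the start, whereas TMED8 in Huh1 came up to the level that Huh7 held with either siRNA.

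ANKRD1, THBS1 and CTGF belong to the matrix and cytoskeletal genes that the Hippo pathway restrains. In that pathway YAP and TAZ enter the nucleus when Hippo kinases are inactive and act with TEAD factors. ANKRD1 was at 10.29 and 26.2 RPKM in Huh1 and at 157 and 178 RPKM in Huh7 (difference -1.08, counting SD 0.10). CTGF was at 14.2 and 29.4 RPKM in Huh1 and at 92.4 and 79.4 RPKM in Huh7, with a log2 change of 0.998 in Huh1 that fell just short of the 2-fold limit (difference -1.21, counting SD 0.09). THBS1, thrombospondin 1, was at 64.0 and 130 RPKM in Huh1 and at 154 and 182 RPKM in Huh7 (difference -0.77, counting SD 0.03). In all 3 the Huh1 level with CDCA8siRNA was still below the Huh7 control level.

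A list of YAP and TEAD targets and pathway genes was also chosen with earlier results of these data known. Over its 12 genes compared, the response was lower in Huh7 for 10, against 51.0% of all genes. It was lower by 1.5-fold or more for CTGF, ANKRD1 and AMOTL2, against 2.14% of all genes. It was higher by that much for 0, against 1.98%. The median change was 0.34 in Huh1 and 0.14 in Huh7, and 7 of the 12 had a control level more than 2-fold higher in Huh7. AMOTL2, a junction protein of the pathway, went from 6.47 to 11.3 RPKM in Huh1 and, in Huh7, from 37.1 to 33.0 RPKM (difference -0.89). CYR61, a matrix protein related to CTGF, responded in both lines. It was more than 2-fold higher with CDCA8siRNA than with NCsiRNA in each, with log2 changes of 1.35 in Huh1 and 1.01 in Huh7.

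Promoters of CTGF, ANKRD1 and THBS1 are shown because these genes share the response in Huh1. They hold 250 bases before the start, from RefSeq on GRCh38.p14, at chr6:131951373-131951622 on the minus strand for CTGF (named CCN2 there), chr10:90921088-90921337 on the minus strand for ANKRD1 and chr15:39580829-39581078 on the plus strand for THBS1. Capitals mark GGAATG, the core motif of TEAD factors.
CTGF: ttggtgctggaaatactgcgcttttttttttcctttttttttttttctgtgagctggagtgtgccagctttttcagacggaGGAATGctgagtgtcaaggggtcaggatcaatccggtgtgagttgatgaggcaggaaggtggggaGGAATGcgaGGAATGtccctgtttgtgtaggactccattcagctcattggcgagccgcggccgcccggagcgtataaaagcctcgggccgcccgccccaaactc
ANKRD1: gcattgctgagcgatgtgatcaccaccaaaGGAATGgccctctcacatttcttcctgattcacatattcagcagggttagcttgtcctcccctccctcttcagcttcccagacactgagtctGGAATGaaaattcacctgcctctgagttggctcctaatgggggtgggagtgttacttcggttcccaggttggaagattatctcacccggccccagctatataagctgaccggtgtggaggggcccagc
THBS1: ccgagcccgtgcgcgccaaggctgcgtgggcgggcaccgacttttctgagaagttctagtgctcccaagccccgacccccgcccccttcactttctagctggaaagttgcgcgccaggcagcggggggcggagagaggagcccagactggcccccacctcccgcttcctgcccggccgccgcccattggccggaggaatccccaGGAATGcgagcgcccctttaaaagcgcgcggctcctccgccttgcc
The window held 3 copies of GGAATG in CTGF, 2 in ANKRD1 and 1 in THBS1. Searched on both strands, GGAATG was in 5 of 9 promoters of the YAP and TEAD list (55.6%) and in 9.52% of all 8632 promoters. Of the 12 genes of the list compared, 9 had a promoter in the search, and THBS1 is outside the list. Since the list was made of YAP and TEAD targets, its share was partly given by that choice and says nothing on the response to CDCA8siRNA. The AP-1 motif TGANTCA was in 2 of the 9 and in 4.02% of all promoters, and a motif of NF-kB factors was in 0 of the 9 and in 0.568%.

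**Figure D3:**
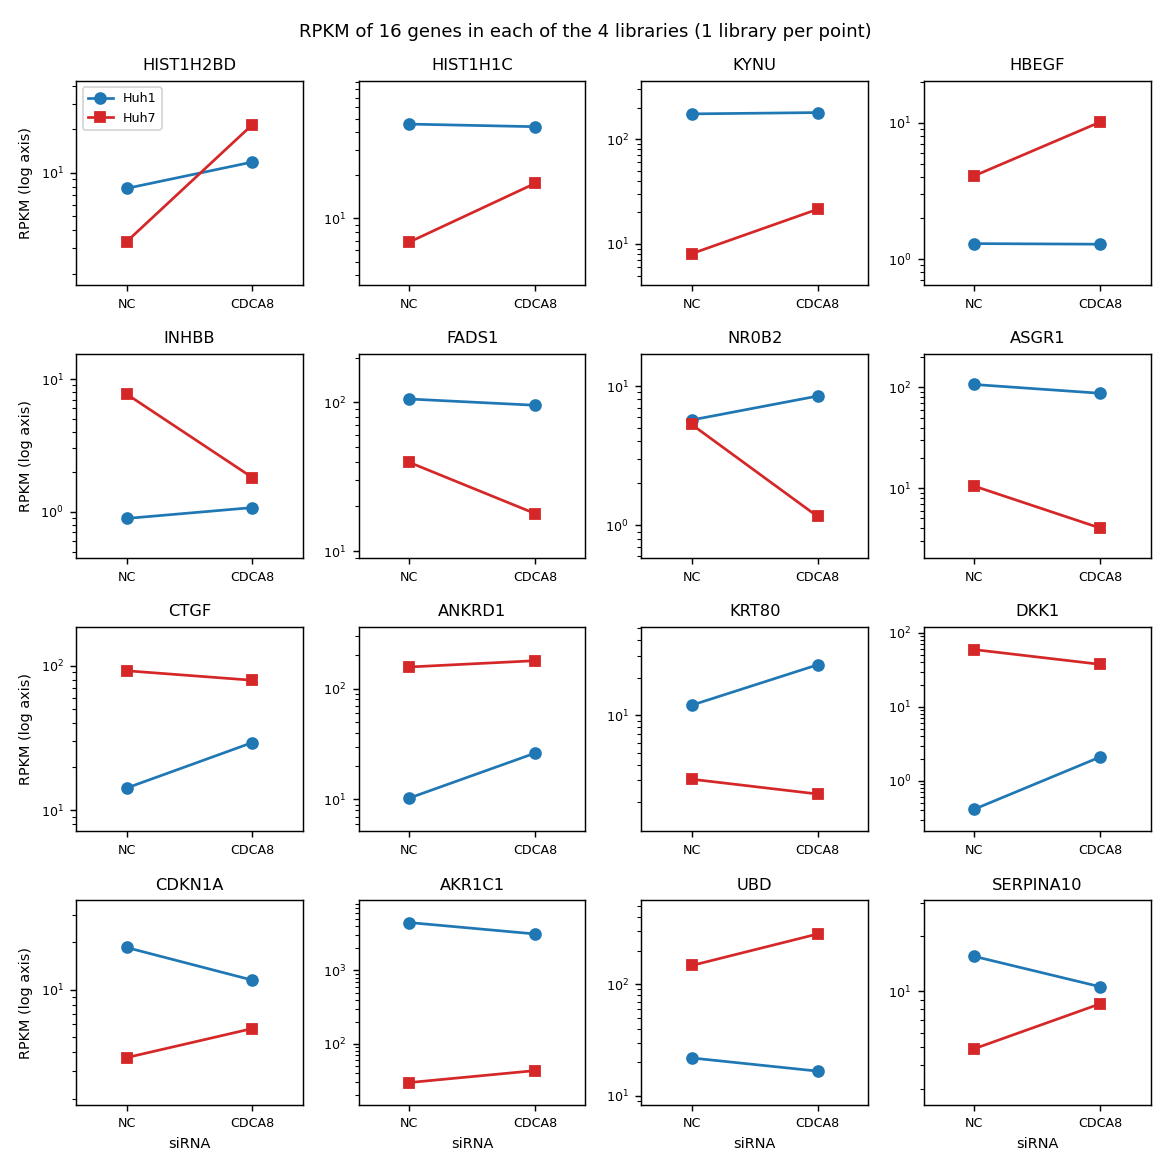
RPKM (log axis) of 16 genes in each library, with NCsiRNA at the left and CDCA8siRNA at the right of each panel, Huh1 as blue circles and Huh7 as red squares. Each point is 1 library, and lines cross for HIST1H2BD, run apart for KRT80, NR0B2 and UBD, and draw together for DKK1, CDKN1A, AKR1C1 and SERPINA10.

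Opposite responses of at least 0.5 in each line were found for CDKN1A, AKR1C1, SERPINA10, LGALS2, NRTN, GLI4 and HIST1H3H, which were lower in Huh1 and higher in Huh7 with CDCA8siRNA. HIST1H3H and NRTN passed the filter in Huh7 only through the CDCA8siRNA library. LGALS2 and HIST1H3H passed in Huh1 only through the NCsiRNA library. Those changes were thus partly fixed by the filter. CDKN1A, the cyclin-dependent kinase inhibitor p21, was at 18.6 and 11.5 RPKM in Huh1 and at 3.66 and 5.63 RPKM in Huh7. The log2 changes were -0.65 and 0.51 (difference 1.16, counting SD 0.18), and Huh1 remained above Huh7. AKR1C1, an aldo-keto reductase of steroid and xenobiotic metabolism, was at 4497 and 3144 RPKM in Huh1 and at 29.6 and 43.1 RPKM in Huh7 (difference 1.04). Its neighbour AKR1C2 was at 288 and 212 RPKM in Huh1 and at 6.62 and 11.4 RPKM in Huh7 (difference 1.14, counting SD 0.17). AKR1C1 and AKR1C2 are near-identical in sequence, so reads of either may have been counted for the other. SERPINA10, a liver-secreted inhibitor of coagulation factor X, went from 15.4 to 10.6 RPKM in Huh1 and, in Huh7, from 4.91 to 8.57 RPKM (difference 1.20, counting SD 0.16). In CDKN1A, AKR1C1, AKR1C2 and SERPINA10 the lines came closer with CDCA8siRNA.

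The 4 genes higher in Huh1 and lower in Huh7 were KRTAP19-5, DKK1, ZSCAN16 and MFAP2. DKK1, a secreted inhibitor of WNT signalling, was at 0.41 and 2.10 RPKM in Huh1 and at 59.3 and 37.5 RPKM in Huh7, on about 10, 50, 1294 and 823 reads. Its log2 changes were 1.13 and -0.65 (difference -1.78, counting SD 0.20). ZSCAN16, a zinc finger gene, was at 2.46 and 4.70 RPKM in Huh1 and at 2.96 and 1.54 RPKM in Huh7, with a difference of -1.36 (counting SD 0.31) from near-equal controls. MFAP2, a protein of elastic microfibrils, went from 0.95 to 1.93 RPKM in Huh1 and, in Huh7, from 14.2 to 9.33 RPKM (difference -1.14, counting SD 0.28). KRTAP19-5, a hair keratin-associated gene, had the largest difference of all genes at -2.42 (counting SD 0.46), with 2.05 and 5.54 RPKM in Huh1 and 1.497 RPKM in the Huh7 control. It was listed at 0 in Huh7 with CDCA8siRNA and had 34 reads or fewer in each library, and it passed the filter in Huh7 only through the NCsiRNA library. DKK1 and MFAP2 passed in Huh1 only through the CDCA8siRNA library, so their rise there was partly fixed by the filter.

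Several genes with a difference of 1 or more leaned in opposite directions without reaching these limits. NR0B2, the nuclear receptor SHP that represses bile acid synthesis, had near-equal controls at 5.70 RPKM in Huh1 and 5.29 in Huh7. It went to 8.47 RPKM in Huh1 and to 1.15 RPKM in Huh7, so that Huh7 kept 0.218 of its control level and Huh1 had 1.49 times its own (difference -2.04, counting SD 0.29). SMARCD3, a subunit of the SWI/SNF chromatin remodeller, went from 1.18 to 1.77 RPKM in Huh1 and, in Huh7, from 24.0 to 10.5 RPKM (difference -1.46, counting SD 0.22). UBD, the ubiquitin-like modifier FAT10, went from 21.8 to 16.6 RPKM in Huh1 and, in Huh7, from 148 to 283 RPKM (difference 1.31, counting SD 0.12). NR0B2 and SMARCD3 thus went with Huh1 upward and UBD with Huh7 upward.

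F13B, the B subunit of coagulation factor XIII, went from 1.35 to 1.09 RPKM in Huh1 and, in Huh7, from 1.11 to 3.05 RPKM (difference 1.11, counting SD 0.26). TIMP3, an inhibitor of metalloproteases, had like controls and went from 5.03 to 3.95 RPKM in Huh1 and, in Huh7, from 5.84 to 11.1 RPKM (difference 1.11, counting SD 0.13). TM4SF4, a tetraspanin-like protein of liver cells, went the other way, from 61.1 to 92.1 RPKM in Huh1 and, in Huh7, from 8.72 to 6.14 RPKM (difference -1.03, counting SD 0.14). GABRA2, CABYR, LIME1, CDRT15, DEFB1, CCDC159 and ICAM2 had differences of 1.04 to 1.26, and EME2 and C1orf116 had -1.15 and -1.04. CDRT15, DEFB1 and ICAM2 passed the filter in Huh1 only through the NCsiRNA library, so their fall there was partly fixed. CDRT15 passed in Huh7 only through the CDCA8siRNA library, and EME2 only through the NCsiRNA library. The differences of CDRT15 and DEFB1 were under 3 counting SDs, and DEFB1 rests on about 13, 4, 9 and 11 reads.

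In the 9 genes that moved the same way with a larger response in Huh7, 7 were lower in both lines and the others were HIST1H2BD and HIST1H2BC. FKBP4, the HSP90 co-chaperone FKBP52, was at 54.2 and 19.6 RPKM in Huh1 and at 54.5 and 8.32 RPKM in Huh7. From equal controls the log2 changes were -1.42 and -2.57 (difference -1.15, counting SD 0.09). FKBP1A, which encodes the FK506-binding protein FKBP12, was at 118 and 89.4 RPKM in Huh1 and at 152 and 54.1 RPKM in Huh7 (difference -1.08, counting SD 0.07). HMGN2, a nucleosome-binding protein, was at 119 and 76.2 RPKM in Huh1 and at 238 and 69.1 RPKM in Huh7 (difference -1.13, counting SD 0.07). HMGN2 thus went from the higher level in Huh7 to near-equal levels.

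SLC25A15, the mitochondrial ornithine carrier of the urea cycle, went from 8.57 to 3.04 RPKM in Huh1 and, in Huh7, from 15.3 to 2.30 RPKM (difference -1.06, counting SD 0.24). ARG1, the arginase of the same cycle, went from 1.39 to 0.79 RPKM in Huh1 and, in Huh7, from 6.18 to 1.58 RPKM (difference -1.05, counting SD 0.30). MBNL3, a splicing regulator, and CPNE3, a calcium-dependent lipid-binding protein, had differences of -1.10 and -1.01. CPNE3 ended at 6.93 RPKM in Huh1 and 6.94 RPKM in Huh7 from controls of 14.1 and 29.4 RPKM.

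The comparison was also restricted to genes with both controls at 5 RPKM or more and within 2-fold. Control values are still part of each response, so it is not independent of the starting level in this set either. The largest differences in the set were C12orf39, TIMP3 and GBP1 on the higher side and NR0B2, FKBP4, HMGN2, FKBP1A, SLC25A15 and ZNRD1 on the lower side. Below 1 followed NFKB2, an NF-kB subunit, which went from 25.3 to 23.0 RPKM in Huh1 and, in Huh7, from 23.0 to 39.5 RPKM (difference 0.88). NFKBIB, an inhibitor of NF-kB, went from 11.1 to 10.2 RPKM in Huh1 and, in Huh7, from 8.99 to 15.3 RPKM (difference 0.82). SLC2A1, the glucose transporter GLUT1, went from 16.9 to 20.5 RPKM in Huh1 and, in Huh7, from 33.9 to 20.3 RPKM (difference -0.97), which left the lines at the same level. Controls of SLC2A1 and HMGN2 were close to the 2-fold limit, at 0.96 and 0.99 higher in Huh7 on the log2 scale.

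Gene lists that hold few of the 59 genes still differed by line in their medians. These lists, too, were chosen with earlier results of these data known. Over 25 DNA replication genes, the response was lower in Huh7 for all 25, against 51.0% of all genes. The median change was -0.05 in Huh1 and -0.26 in Huh7, and the median difference was -0.26. By 1.5-fold or more, 2 were lower. PCNA, the sliding clamp, was at 109 and 72.8 RPKM in Huh1 and at 194 and 71.9 RPKM in Huh7 (difference -0.85, counting SD 0.07). MCM6, of the replicative helicase, was at 35.4 and 34.0 RPKM in Huh1 and at 61.7 and 37.7 RPKM in Huh7 (difference -0.64, counting SD 0.06). The count of genes below 0 was 23 of 25 with quantile normalization and 24 with upper quartile scaling.

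Responses of cholesterol and fatty acid synthesis genes also leaned lower in Huh7. Of 22 genes, 19 were higher with CDCA8siRNA in Huh1 and 9 in Huh7, with median changes of 0.19 and -0.10. Over all genes the median changes were 0.02 and 0.03. The response was lower in Huh7 for 20 of 22, against 51.0% of all genes, with a median difference of -0.33. With quantile normalization it was lower for 19. SCD, the stearoyl-CoA desaturase, was at 323 and 372 RPKM in Huh1 and at 411 and 311 RPKM in Huh7 (difference -0.61, counting SD 0.02). DHCR7, of the last step of cholesterol synthesis, was at 56.8 and 61.1 RPKM in Huh1 and at 100.3 and 71.3 RPKM in Huh7 (difference -0.59). LSS, the lanosterol synthase, was an exception with a difference of 0.066 and log2 changes of 0.30 in Huh1 and 0.36 in Huh7. Unlike SCD, it thus leaned upward in Huh7 too.

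Xenobiotic metabolism genes, which include cytochromes P450 and conjugating enzymes, were more than 2-fold higher in the Huh1 control for all 13 compared. The response was higher in Huh7 for 9 of them, against 49.0% of all genes. It was higher by 1.5-fold or more for 7, against 1.98% of all genes, and lower by that much for 0, against 2.14%. GSTA2, CYP3A5 and SULT1E1 passed the filter in Huh7 only through the CDCA8siRNA library. With 1 RPKM in all 4 libraries 7 of 10 were higher in Huh7, with a median difference of 0.46. Without a filter this held for 17 of 24, with a median of 0.34. Over all genes the median difference was -0.01 and 0 under these filters. Median changes of the 13 genes were -0.10 in Huh1 and 0.42 in Huh7. AKR1C2 and AKR1C1 led, followed by SULT1E1, the estrogen sulfotransferase, at 14.5 and 16.02 RPKM in Huh1 and 0.37 and 1.88 RPKM in Huh7 (difference 0.94, counting SD 0.23). CYP2J2, a cytochrome P450 epoxygenase, and UGT2B4, a glucuronosyltransferase, had differences of -0.46 and -0.29.

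Of 13 NF-kB genes compared, the response was higher in Huh7 for 10, against 49.0% of all genes, with a median difference of 0.38. The response of BIRC3, NFKB2, TNFAIP3 and NFKBIE was higher in Huh7 by 1.5-fold or more, against 1.98% of all genes. That of IL8 and CXCL3 was lower by as much, against 2.14%. BIRC3, an inhibitor of apoptosis, was at 2.13 and 2.18 RPKM in Huh1 and at 4.10 and 8.74 RPKM in Huh7 (difference 0.91, counting SD 0.16). IL8, the neutrophil chemokine, was at 7.01 and 24.7 RPKM in Huh1 and at 84.9 and 151 RPKM in Huh7 (difference -0.86, counting SD 0.12). IL8 was higher with CDCA8siRNA in both lines, more so in Huh1. Of 14 p53 targets, CDKN1A, BTG2 and GADD45A had a response higher in Huh7 by 1.5-fold or more, against 1.98% of all genes. MDM2, the inhibitor of p53, had a difference of -0.14.

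Complement and coagulation genes had a response higher in Huh7 in 16 of 19 cases, against 49.0% of all genes. Their median difference was 0.21, with F13B at 1.11 and C1S, a complement protease, at 0.80. Of 17 MAPK feedback and immediate early genes, 15 were higher with CDCA8siRNA in Huh1 and 14 in Huh7. Their median changes were 0.68 and 0.39, against 0.02 and 0.03 over all genes. The median difference was -0.17 with 14 of 17 below 0, and the phosphatase genes DUSP1 and DUSP6 were both at -0.60. SPRY2, an inhibitor of receptor kinase signalling, went the other way at 0.69. Cytosolic chaperones had a median difference of -0.11 with 15 of 16 below 0, and the TGF-beta pathway -0.15 with 15 of 19 below 0. Over all genes compared, 51.0% were below 0. INHBE, an activin chain, was the farthest of the TGF-beta list at -0.73. Hepatocyte transcription factors had a median of -0.03 and held NR0B2 as the single gene at 1 or more in size.

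The chromosomal passenger complex and its recruitment genes had a median difference of -0.20 over 8 genes. Apart from CDCA8, BIRC5 was at 26.6 and 30.8 RPKM in Huh1 and at 39.3 and 67.2 RPKM in Huh7 (difference 0.55, counting SD 0.08). AURKB was at 50.6 and 43.6 RPKM in Huh1 and at 68.5 and 45.6 RPKM in Huh7 (difference -0.37, counting SD 0.10). These subunits of the complex thus differed between the lines in opposite senses. Mitotic spindle and kinetochore genes had a median difference of -0.03 over 22 genes, which turned to 0.01 with quantile normalization, farthest for CENPA, the centromeric histone H3, at 0.51.

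KRAB zinc fingers on 19p12 were higher with CDCA8siRNA in both lines for 19 of 19 genes. Their median changes were 0.56 in Huh1 and 0.59 in Huh7, against 0.02 and 0.03 over all genes. Their median difference was 0.02, which turned to -0.11 when the Huh1 changes were scaled to the Huh7 spread. Cytosolic ribosomal proteins had 0.03, endoplasmic reticulum folding 0.07, and the integrated stress response 0.12, where VLDLR was farthest at 0.73. Interferon-stimulated genes had a median of 0.21 with ISG20 at 0.56, and collagens, laminins and integrins 0.18 with LAMA3 at 0.51. Liver plasma and acute phase proteins had -0.12 with HPX, hemopexin, at 0.90, and apolipoproteins -0.21 with APOE at 0.57. Actin filament and adhesion genes had -0.07 with ZYX at -0.78, a median that turned to 0.01 with quantile normalization. The 5 EGF family genes had -0.15, and the 3 metallothioneins 0.14 with MT1E at 0.35.

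**Figure D4:**
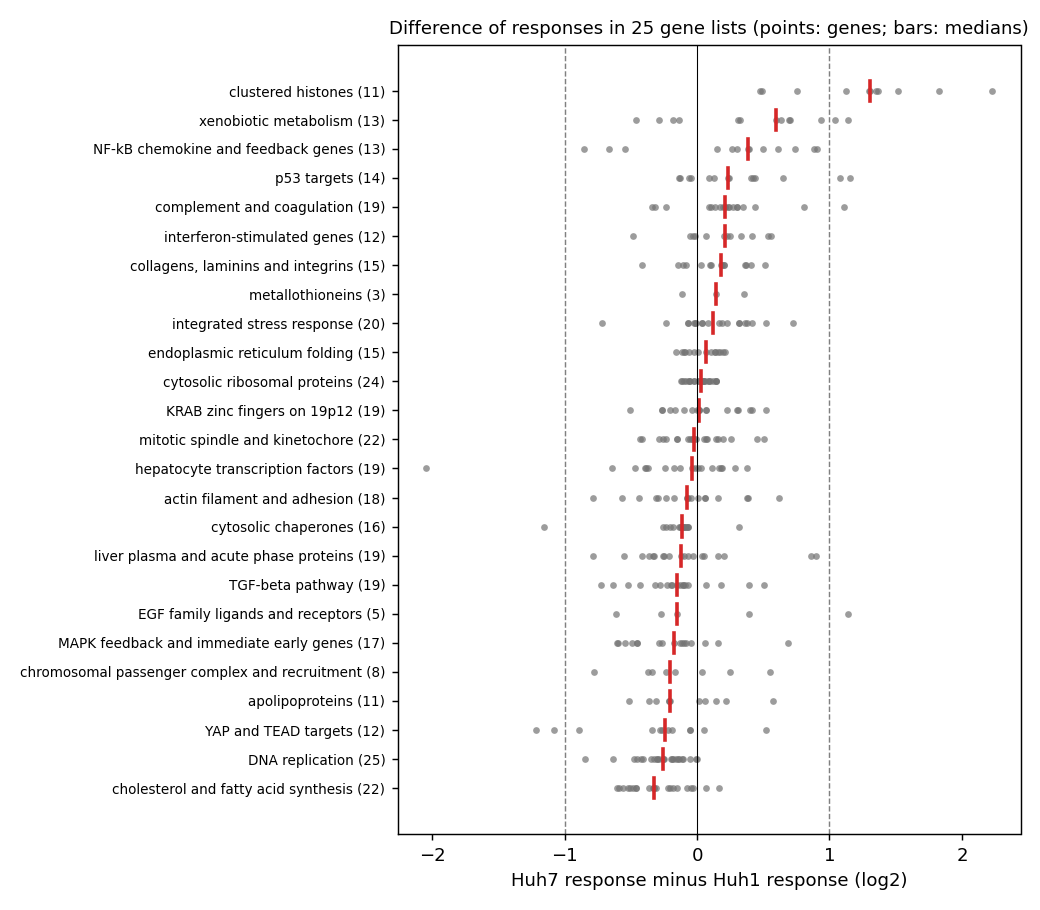
Difference of responses (Huh7 minus Huh1, log2, horizontal axis) for the genes of 25 lists, with each gene a grey point, each list's median a red bar and the number compared in parentheses. Clustered histones lie highest with a median of 1.31, and cholesterol and fatty acid synthesis lowest at -0.33.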

How the data were processed

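RNA of Huh1 and Huh7 cells with NCsiRNA or CDCA8siRNA was sequenced, 1 library for each of 4 conditions, and samples were grouped by their labels. The authors deposited 1 value per RefSeq transcript without a header. The unit, RPKM, was deduced from the values, which the authors had already scaled to depth and transcript length. The submitters' processing notes name CASAVA 1.8.2, TopHat2 2.0.9 and hg19. The counter and the annotation are not given in the sources used here. Only 38.0% to 41.7% of low values (1 to 10 reads) came out as whole reads within 0.05, so no count test was run.

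Log2(RPKM + 1) responses were computed per line for genes with 1 RPKM or more in at least 1 library of each line, and the pseudocount makes changes of low genes smaller. A p-value was not computed, since 4 libraries in 4 conditions leave 0 residual degrees of freedom. Reads per value, and the counting SD from them, used transcript lengths of GENCODE 29 (17768 transcripts matched by RefSeq ID, 497 by symbol, 133 not) and are off where the authors' length was another one. For AKR1C1, whose matched length is long for its mRNA, no read number is given. Promoter letters came from RefSeq on GRCh38.p14 and were matched by symbol.

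The members and the 25 gene lists were chosen with earlier results of these data known. Named genes were CDCA8, the 10 largest differences of each class, the 6 largest each way among responses in the same direction, the 10 largest each way among genes with like controls of 5 RPKM or more, and in each list the genes at 1 or more or else the farthest. Further genes were named after their values were seen, among them the remaining members of the classes and the second examples of lists. Alternatives changed the pseudocount, the filter, the normalization and the class limits. Results for a few genes are not reported here. The steps were tested on simulated data. Python 3.11.15, numpy 2.4.6, pandas 2.3.3 and matplotlib 3.10.9 were used.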

Additional observations from a re-analysis of the deposited data

Results flagged for a closer look

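The genes named here had a difference of responses of 1 or more and moved by at least 0.3 in each line, with the single Huh1 comparison going one way and the single Huh7 comparison the other. None of these differences was tested, since each condition has 1 library. Lower in Huh1 and higher in Huh7 with CDCA8siRNA were HIST1H3H with a difference of 2.23, LGALS2 with 1.36, UBD with 1.31, SERPINA10 with 1.20, CABYR with 1.18, LIME1 with 1.16, CDKN1A with 1.16, CDRT15 with 1.15, AKR1C2 with 1.14, NRTN with 1.10, GLI4 with 1.07 and AKR1C1 with 1.04. Higher in Huh1 and lower in Huh7 were KRTAP19-5 with -2.42, NR0B2 with -2.04, DKK1 with -1.78, SMARCD3 with -1.46, ZSCAN16 with -1.36, EME2 with -1.15, MFAP2 with -1.14 and TM4SF4 with -1.03. The differences of CDRT15, LGALS2 and NRTN were under 3 counting SDs. For HIST1H3H, LGALS2, CDRT15, NRTN, KRTAP19-5, DKK1, EME2 and MFAP2 at least 1 line reached 1 RPKM in a single library, so the filter favoured a change there.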

How the results depend on the processing

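With a single library per condition, leaving out replicates was not possible. No paired analysis was possible because the labels carry no replicate numbers and the result comes from no test. Counts of genes depended on the pseudocount and filter. Of 59 genes, 59 were also found with a pseudocount of 0.1 RPKM (146 genes), 58 without a pseudocount (172), 57 with quantile normalization (64) and 58 with upper quartile scaling (59). With a pseudocount of 0.1 RPKM, 91 genes were higher and 55 lower in Huh7 by 1 or more, 45 were higher in Huh7 only, 14 higher and 3 lower in Huh1 only, and 21 opposite. The median of histones was 1.66 and of MAPK genes -0.32. Without a pseudocount these counts were 106 and 66, 48 (with 20 lower in Huh7 only), 18 and 5, and 24, and the medians were 1.72 for histones, -0.34 for MAPK genes, 0.72 for xenobiotic metabolism and 0.12 for collagens. At a minimum of 5 RPKM, 17 genes were higher and 12 lower, 12 and 7 in Huh7 only and 3 opposite, with medians of 0.11 for p53 targets and -0.17 for liver plasma proteins. With 1 RPKM in all libraries 5 genes were opposite, with 10 reads in every library 6, and the xenobiotic median was 0.46 in both. Without a filter there were 58 higher and 39 lower, 36 and 20 in Huh7 only and 10 and 2 in Huh1 only. Medians without a filter were 0.14 for the EGF family, which turned the sign, -0.13 for hepatocyte factors, -0.11 for apolipoproteins, -0.0097 for liver plasma proteins, 0.34 for xenobiotic metabolism and 0.10 for collagens. Quantile normalization gave 3 higher and 1 lower in Huh1 only. Its medians were -0.14 for chaperones, -0.15 for YAP and TEAD targets, 0.0137 for actin genes, which turned the sign, -0.11 for apolipoproteins, -0.22 for liver plasma proteins, 0.23 for collagens and 0.0465 for ribosomal proteins. A limit of 0.5 for no response gave 36 higher and 31 lower in Huh7 only and 1 lower in Huh1 only. Responses counted from 1.5-fold gave 159 and 112 in Huh7 only and 56 and 19 in Huh1 only. With controls within 2-fold, 12 genes were higher and 11 lower, 7 and 5 in Huh7 only, 2 higher in Huh1 only and 4 opposite.

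Scaling the Huh1 changes by 1.32, the ratio of the SDs, was chosen after seeing the data, as was the minimum of 10 reads. It gave 78 genes, 50 of them among the 59, with 5 lower in Huh7 only, 20 higher and 2 lower in Huh1 only and 18 opposite. Medians were -0.38 for MAPK genes, -0.14 for actin genes, -0.11 for KRAB zinc fingers, which turned the sign, -0.0208 for apolipoproteins, 0.0201 for liver plasma proteins, which turned the sign, 0.40 for complement and 0.0510 for ribosomal proteins. For changes of 1 library against 1 library the cause of these shifts was not tested. Among the values of the 79 genes of the naming rule under an alternative, 614 stayed within the counting interval of the difference, 43 moved beyond it and 0 changed sign. For 47 other genes named in the text these counts were 370, 19 and 1, the last for LSS at -0.0299 with scaled Huh1 changes. Alternatives that change the filter alone cannot move the difference of a gene. Of the 614 values, 48 (5 RPKM), 65 (1 RPKM in all libraries), 79 (no filter) and 71 (10 reads) were of this kind. The 370 also hold such values. The 79 genes were mostly named for the size of their difference, which makes a change of sign less likely. The median of KRAB zinc fingers also turned the sign with a pseudocount of 0.1 RPKM (-0.0651), without a pseudocount (-0.0765) and without a filter (-0.0401), and that of spindle genes with quantile normalization (0.0119) and scaled Huh1 changes (0.00052). The metallothionein median was 0 without a filter. Depth limits genes of few reads most, and culture variation was not measured.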

Other observations

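Genes that reached 1 RPKM in a single line were outside the comparison. With 1 RPKM or more in Huh1 only there were 583 genes, and 5 of these were 2-fold or more higher with CDCA8siRNA (0.858%) and 3 lower (0.515%). CLDN2, a tight junction claudin, went from 4.18 to 10.4 RPKM in Huh1, and MYEOV from 6.12 to 14.6 RPKM. With 1 RPKM or more in Huh7 only there were 1208 genes, and 20 of these were 2-fold or more higher (1.66%) and 11 lower (0.911%). IGF2, a fetal growth factor, went from 142 to 69.8 RPKM in Huh7 and was under 0.05 RPKM in both Huh1 libraries. CER1, a secreted inhibitor of nodal signalling, went from 9.46 to 2.77 RPKM. Among the higher genes were PTX3, an acute phase protein, from 1.37 to 7.07 RPKM, and the smooth muscle genes CNN1, from 6.67 to 15.3 RPKM, and ACTG2, from 1.87 to 6.27 RPKM. The limit of 1 RPKM does not mean that a gene was absent from the other line. RIN2, for example, was at 0.47 and 0.97 RPKM in Huh1 and at 2.61 and 6.35 RPKM in Huh7. Genes left out in this way were counted only in the alternative without a filter.

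A pair of lists was chosen after the differences had been seen, so their counts support nothing. Of 24 targets of NFE2L2, the factor of the oxidative stress response, 23 were more than 2-fold higher in the Huh1 control. The response was higher in Huh7 for 22 of the 24, against 49.0% of all genes. With CDCA8siRNA 17 were lower in Huh1 and 20 higher in Huh7. The median changes were -0.07 and 0.32, against 0.02 and 0.03 over all genes. SQSTM1, an autophagy receptor, was at 1098 and 821 RPKM in Huh1 and at 200.2 and 299 RPKM in Huh7. HMOX1, heme oxygenase, was higher in both lines, from 206 to 283 RPKM in Huh1 and, in Huh7, from 6.39 to 16.2 RPKM. Of 14 interferon-gamma response genes, UBD, KYNU, GBP1 and GBP3 had a response higher in Huh7 by 1.5-fold or more, against 1.98% of all genes. The MHC class I genes HLA-B and HLA-C had differences of 0.04 and -0.11.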
